A study of Arabidopsis thaliana with 5 samples.

Results

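R-loops were mapped in whole 12-day-old seedlings of wild-type Arabidopsis thaliana of the Columbia ecotype, and the tRNA genes that stand in tandem runs were examined. An R-loop is a stretch of DNA in which an RNA pairs with one strand and leaves the other strand single. The members are nuclear tRNA genes in runs of at least 5 neighbours, with less than 1000 bp between consecutive genes, together with the peaks that overlap such a run. By this rule 118 of 625 nuclear tRNA genes fell into 6 runs, and the other 507 are called dispersed. The genes were chosen by position and the peaks by overlap with the runs, so the presence of peaks in the set is a description and was not tested. The series holds 5 samples, all from the same genotype, ecotype and tissue: 2 samples of DNA:RNA immunoprecipitation (DRIP), in which the S9.6 antibody pulls down DNA that holds a hybrid, 2 more with added RNase H, an enzyme that removes RNA paired to DNA, and 1 input sample. Peak lists of the DRIP replicates were analysed. The RNase H samples and the input were not analysed here, so how RNase H affects the peaks is unknown here. Whether the replicates are separate batches of seedlings is not given, and the spread between them may be technical.

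Transfer RNAs carry amino acids to the ribosome. Their genes are short and are transcribed by RNA polymerase III from promoter elements inside the gene. In Arabidopsis most nuclear tRNA genes are scattered, but chromosome 1 is known for a tandem array of serine-tyrosine-tyrosine tRNA genes and for groups of proline tRNA genes. Clustered tRNA genes of this kind have been described as DNA-methylated and weakly transcribed compared with scattered copies.

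The largest run, AT1G56730 to AT1G57530 on chromosome 1, held 81 genes over 39685 bp, arranged as 27 repeats of 1 serine (Ser) and 2 tyrosine (Tyr) genes. Proline (Pro) genes made up 4 runs. These were AT1G28770 to AT1G28810 with 5 genes over 1920 bp, AT1G28820 to AT1G28920 with 11 genes over 5114 bp, AT1G28930 to AT1G28990 with 6 genes over 2692 bp, and AT2G33890 to AT2G33970 on chromosome 2 with 9 genes over 6207 bp. The 3 Pro runs of chromosome 1 are neighbours, separated by gaps of 2706 and 4025 bp. The sixth run, AT2G07759 to AT2G07765, held 6 genes of 5 isotypes over 3059 bp of chromosome 2. It lies in a part of the chromosome known to hold inserted mitochondrial DNA. No sequences were compared. How reads that fit several places were assigned is not given in the sources used here, and whether the value of 1 gene holds reads of another was not tested.

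There are 4 peak lists: 1 for each DRIP replicate, and the lists named w and c, which separate the strands and are recorded under DRIP replicate 1. The w and c lists are therefore not independent of replicate 1. The letters serve here only to tell one strand from the other, and the strand that holds the RNA was not settled. Gene orientation was not used, as the annotation at hand does not give it. Peak fold is the authors' value from MACS2, the pileup at the summit over the pileup expected there, and it is used to describe and rank peaks within a list. The smaller of the 2 replicate folds serves to choose which genes are named. Library depth is unknown, since the lists give no read totals. The runs were overlapped by 38 of 47291 peaks of replicate 1, 34 of 39888 peaks of replicate 2, 39 of 34493 w peaks and 1 of 34069 c peaks.

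DRIP peaks reached a minority of the tandem genes, and every strand-specific peak on a tandem gene was a w peak. An overlap of 1 bp was enough for a gene to count. DRIP peaks overlapped 39 of the 118 genes in replicate 1 (33.1%) and 32 in replicate 2 (27.1%), and the 32 genes of replicate 2 all had a peak in replicate 1 as well. The background in replicate 1 was 61.9% of all nuclear genes, which include much longer genes, 40.8% of all nuclear tRNA genes and 42.6% of dispersed tRNA genes. In replicate 2 it was 56.8%, 36% and 38.1%, and for a peak in both replicates 55.3%, 32.5% and 33.7%. The tandem share of 27.1% thus lay below that of dispersed tRNA genes as a whole. Among dispersed genes the share was 25.0% for the 32 in runs of 2 to 4 and 34.3% for the 475 alone within 1 kb. The tandem share also depended on the run. In the Ser-Tyr-Tyr run 14 of 81 genes (17.3%) had a peak in both replicates. In the other runs 18 of 37 genes (48.6%) did. Tandem genes were 71 to 88 bp long and dispersed ones 69 to 90 bp.

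**Figure D1:**
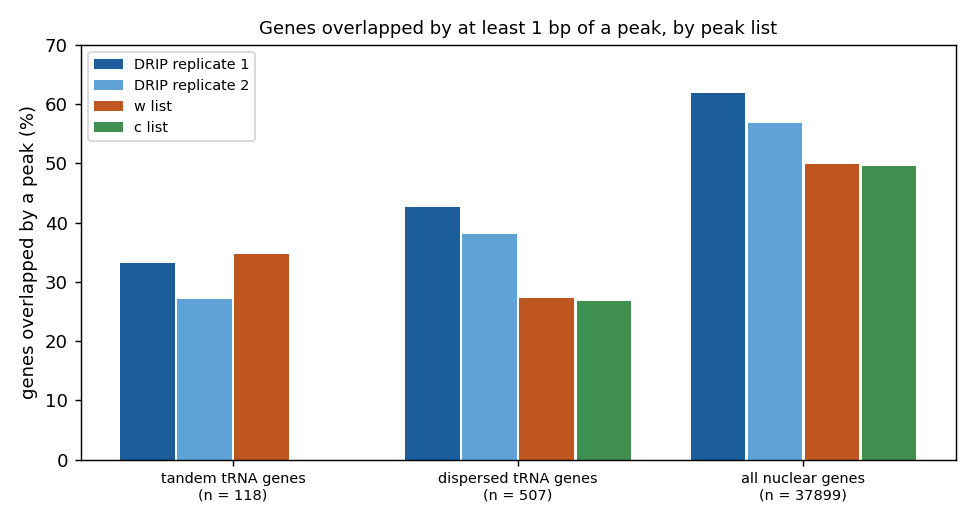
Share of genes overlapped by at least 1 bp of a peak in each of the 4 lists, as a percentage, for 118 tandem tRNA genes, 507 dispersed tRNA genes and all 37899 nuclear genes; each bar is 1 list and carries no error bar. The c bar of the tandem genes is at 0, while w and c bars are nearly level in the other groups.

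The w list overlapped 41 tandem genes (34.7%) and the c list none. Against this, 49.9% of all nuclear genes carried a w peak and 49.5% a c peak, and 23.8% a w peak without a c peak. Of all nuclear tRNA genes 28.6% carried a w peak, 21.8% a c peak and 25.6% a w peak without a c peak. Among dispersed tRNA genes 138 carried a w peak (27.2%) and 136 a c peak (26.8%), so that of the 255 dispersed genes with a peak on either strand 119 (46.7%, or 23.5% of all dispersed genes) had a w peak alone. Of the 32 dispersed genes in runs of 2 to 4, 10 carried a w peak (31.2%) and 3 a c peak (9.38%). All 41 tandem genes with a strand peak had a w peak alone. Without the Ser-Tyr-Tyr run the counts were 23 w genes and 0 c genes among 37. Without AT2G07759 to AT2G07765 they were 38 and 0 among 112. Neighbouring genes can share a peak, and 3 of the runs are neighbours, so the 118 genes are not 118 separate observations and no test was made.

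The DRIP peaks over the runs were also classed by their overlap with the w and c lists. The DRIP lists separate no strands, so these shares restate the w and c lists. They are not separate evidence, for replicate 2 either. Of the 38 replicate 1 peaks over the runs 36 (94.7%) overlapped a w peak and no c peak, against 44.9% of all replicate 1 peaks. Of the 34 replicate 2 peaks 32 (94.1%) did so, against 44.2% of the whole list. In each replicate 1 run peak overlapped both strands and 1 overlapped neither, and both of these lie in AT2G07759 to AT2G07765. The only c peak over any run lay there as well, at chromosome 2, 3495729 to 3496145, with a fold of 3.81. It sat in a gap, with its summit 336 bp from the nearest tRNA gene, the cysteine gene AT2G07763.

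In the Ser-Tyr-Tyr run the DRIP peaks recurred at the spacing of the repeat. A unit is counted here from the start of 1 Ser gene to the start of the next. The complete units were 1349 to 1537 bp long (median 1531 bp). Consecutive DRIP summits were a median of 1547 bp apart in replicate 1 and 1536 bp in replicate 2. Replicate 1 had a summit in 16 of the 27 units, replicate 2 in 15, and all 15 were among the 16. No unit held more than 1 summit of a list.

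**Figure D2:**
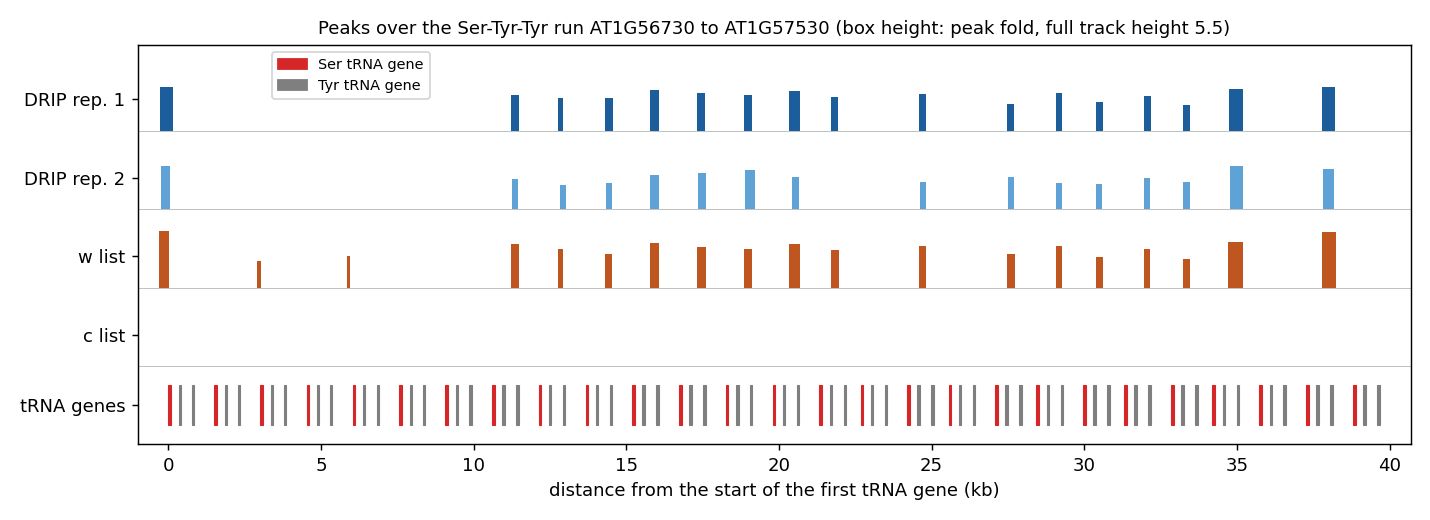
Peaks of the 4 lists along the Ser-Tyr-Tyr run, in kb from the start of its first gene; box width is peak width, box height is peak fold (full track height 5.5), and red and grey bars are Ser and Tyr genes. DRIP and w peaks recur about once per unit from about 11 kb onwards, and the c track is empty.

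The first stretch of the run was nearly free of peaks. Both replicates had a peak at the outer edge, overlapping the first Ser gene AT1G56730 with folds of 3.83 and 3.75, and its summit lay before that gene. The next DRIP summit came 11466 bp further on in replicate 1 and 11521 bp in replicate 2, in the eighth unit. Units 1 to 7, 1509 to 1529 bp long, held no DRIP summit in either replicate. The w list had 2 peaks inside this stretch, in units 2 and 4, with folds of 2.32 and 2.75. The first of these w peaks overlapped the Ser gene AT1G56790, and neither replicate's DRIP list had a peak there. AT1G56740, AT1G56750 and AT1G56760 were among the genes without any peak.

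From the eighth unit on, the place of the peak went with the length of the unit. This grouping by length was made after the positions were seen. Among 14 units of 1531 to 1537 bp, 11 had a summit in both replicates and 3 (units 16, 18 and 25) had none in either. Their summits lay 641 to 828 bp from the start of the Ser gene in replicate 1 and 672 to 834 bp in replicate 2, before or inside the second Tyr gene, which starts at 787 to 794 bp. The 5 units of 1349 bp, numbers 15, 17, 19, 21 and 23, alternate with longer ones. All 5 had a summit in replicate 1 and 4 of them in replicate 2. Here the summits lay at 443 to 570 bp and 520 to 558 bp, between the 2 Tyr genes, although the second Tyr gene starts at 791 bp in these units too. The last unit, which ends with the run after its second Tyr gene, held no summit.

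**Figure D3:**
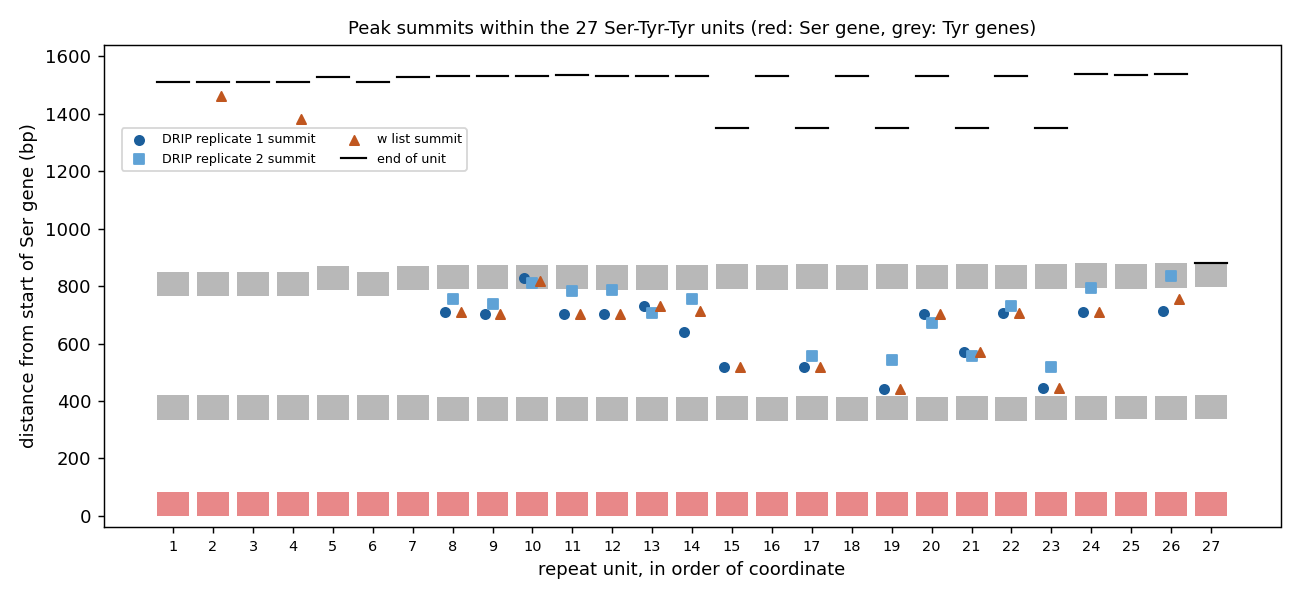
Position of each peak summit in the 27 Ser-Tyr-Tyr units, in bp from the start of the unit's Ser gene, for both DRIP replicates and the w list; red and grey boxes are Ser and Tyr genes and black lines the end of the unit. Summits sit near the second Tyr gene in units of 1531 to 1537 bp and between the Tyr genes in units of 1349 bp; the peak at the outer edge of the run, whose summit lies before unit 1, is not drawn.

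The gene reached therefore depended on its place in the unit. Of the 27 second Tyr genes 11 had a DRIP peak in both replicates. Of the 27 first Tyr genes 5 had one in replicate 1 and 2 in replicate 2. These peaks covered 11.8% to 28.2% of the first Tyr gene in replicate 1, and 15.3% and 27.1% in replicate 2. On the 11 second Tyr genes the cover was 12.9% to 100% and 45.9% to 100%. AT1G57160, AT1G57220 and AT1G57340 were touched in replicate 1 only, by peaks with folds of 2.95, 3.19 and 2.52. The peaks on AT1G57220 and AT1G57340 were found again in replicate 2, with folds of 2.38 and 2.19, but stopped short of the gene there. Of the 27 Ser genes only AT1G56730, at the outer edge, had a DRIP peak. After that gene the highest smaller-of-replicates folds belonged to second Tyr genes: AT1G57440 (3.64 in replicate 1, 3.75 in replicate 2, 4.00 in the w list), AT1G57500 (3.83, 3.57 and 4.91), AT1G57080 (3.30, 3.20 and 3.54) and AT1G57110 (3.14, 3.47 and 3.38). The peak on AT1G57500 spanned chromosome 1, 21306571 to 21307012, in replicate 1 and 21306621 to 21306962 in replicate 2. The units of 1531 to 1537 bp had a median fold of 3.30 in replicate 1 and 2.83 in replicate 2, and the units of 1349 bp had 2.45 and 2.38, over units with a summit in both replicates. The ranges overlapped in both replicates (2.87 to 3.83 against 2.28 to 3.19 in replicate 1, and 2.10 to 3.75 against 2.19 to 2.83 in replicate 2).

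Peaks covered less of the Ser-Tyr-Tyr run than of any other run. DRIP peaks covered 10.2% ± 1.33 of its bases (SD, n = 2), close to the 12.3% ± 0.933 of the nuclear genome. The 6 runs together were covered to 17.2% ± 1.76, with 22.5% ± 2.17 of gene bases and 16.2% ± 1.68 of gap bases. In the 5 kb above the Ser-Tyr-Tyr run none of the 4 lists had a peak. In the 5 kb below it the lists covered 17.3% (replicate 1), 18.3% (replicate 2), 15.9% (w) and 11.1% (c). The nearest c peaks stood 4281 bp below and 8139 bp above the run. The resulting stretch without c peaks was 52103 bp long, the ninth longest of 34064 stretches between neighbouring c peaks (rank 9), and held 20 w peaks. Only 2 such stretches held more w peaks, with 23 and 22. The reverse case, c peaks with no w peak between, reached 37 c peaks in a 61597 bp stretch of chromosome 3, so long successions of peaks on 1 strand also occurred elsewhere and with the strands exchanged.

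Among the 3 Pro runs of chromosome 1, 10 of 22 genes had DRIP peaks in each replicate and 14 had a w peak. In AT1G28770 to AT1G28810 a peak of similar extent in each replicate (chromosome 1, 10093328 to 10093885 in replicate 1 and 10093350 to 10093973 in replicate 2) overlapped the neighbours AT1G28790 and AT1G28800. Its folds were 3.12 and 3.10, and the w fold was 3.60. AT1G28770, AT1G28780 and AT1G28810 had no peak in any list. DRIP peaks covered 30.8% ± 2.43 of this run (SD, n = 2).

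The middle Pro run, AT1G28820 to AT1G28920, was the one in which the replicates differed most. Replicate 1 had 9 peaks over 9 of 11 genes and replicate 2 had 6 peaks over 6 genes, and coverage was 37.7% against 23.6% of bases. AT1G28890 had the highest smaller-of-replicates fold, with folds of 3.0 in replicate 1, 3.61 in replicate 2 and 3.50 in the w list. AT1G28870 and AT1G28880 shared a peak with folds of 3.02, 2.98 and 3.55, above AT1G28890 in replicate 1 and in the w list. AT1G28820 had 2.56, 2.81 and 2.69, and AT1G28910 had 2.67, 2.21 and 2.87. AT1G28830, AT1G28860 and AT1G28920 were reached in replicate 1 only, by peaks with folds of 2.56, 2.0 and 2.39. The peak on AT1G28830 is the one on AT1G28820, and in replicate 2 it ended before AT1G28830. AT1G28840 and AT1G28900 were the 2 genes without a DRIP peak.

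In AT1G28930 to AT1G28990 the replicates coincided. AT1G28950 had folds of 3.61 and 3.99 and a w fold of 4.36, and AT1G28940 had 3.01, 2.65 and 3.61. AT1G28930 and AT1G28970 had no peak in any list, and AT1G28980 had a w peak of fold 2.10 without a DRIP peak. DRIP coverage was 28.4% ± 0.604 (SD, n = 2). The c peaks nearest to these 3 runs stood 926 to 3270 bp away, and the c list covered 5.44% to 21.9% of the 5 kb on either side, windows that for neighbouring runs overlap in part.

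The Pro run of chromosome 2, AT2G33890 to AT2G33970, carried the highest folds of all runs. AT2G33900 had folds of 4.63 in replicate 1 and 5.30 in replicate 2, from a peak at chromosome 2, 14351108 to 14351452, in replicate 1 and 14351103 to 14351546 in replicate 2. Its w fold was 5.23. AT2G33920 and AT2G33930 shared a peak with folds of 4.66 and 4.62 and a w fold of 5.02. AT2G33960 had 4.25 and 4.17, and a w peak of fold 5.25 also reached the last gene, AT2G33970, which had no DRIP peak. A peak with folds of 3.51 and 3.47 near the start of the run overlapped AT2G33890 in replicate 1 only. AT2G33910, AT2G33940 and AT2G33950 had no peak in any list. DRIP coverage was 26.9% ± 1.38 (SD, n = 2). The nearest c peaks stood 16833 bp below the run and 2564 bp above it. In the 5 kb above the run the c list covered 23.0% and the w list 0.4%. In the 5 kb below it they covered 0% and 3.3%.

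The mixed run, AT2G07759 to AT2G07765, was covered most, at 47.5% ± 4.6 (SD, n = 2), by peaks of low fold. AT2G07763 (Cys) had folds of 2.62 and 2.67 and AT2G07765 (Tyr) had 2.60 and 3.01, with w folds of 3.31 and 3.58. The DRIP peaks counted for AT2G07765 covered only 4.82% of that gene in replicate 1 and 9.64% in replicate 2. Their summits lay 85 and 74 bp outside it. AT2G07762 (Pro) had 2.09 and 2.04 with a w fold of 3.31. AT2G07759 (Ser) had 2.13 and 1.78 with no strand peak, and AT2G07761 (Tyr) and AT2G07764 (Asn) had no peak on the gene. The peak over AT2G07763 was the widest of the set, at 1063 bp in replicate 1. The Tyr genes of this run, at 75 and 83 bp, have the lengths of the mitochondrial tyrosine tRNA genes in the same table. The Ser gene has 88 bp, against 87 bp for the mitochondrial serine tRNA genes. For the Pro, Cys and Asn genes no mitochondrial gene of the isotype is listed there. The Cys, Asn and Pro genes of the run have 71, 72 and 75 bp, and plastid genes of these isotypes 71, 72 and 74 bp. Plastid Ser genes have 87, 88 and 92 bp, and the plastid Tyr gene 84 bp. Where the genes of this run come from was not tested. Whether reads of mitochondrial or plastid DNA were placed here was not tested.

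**Figure D4:**
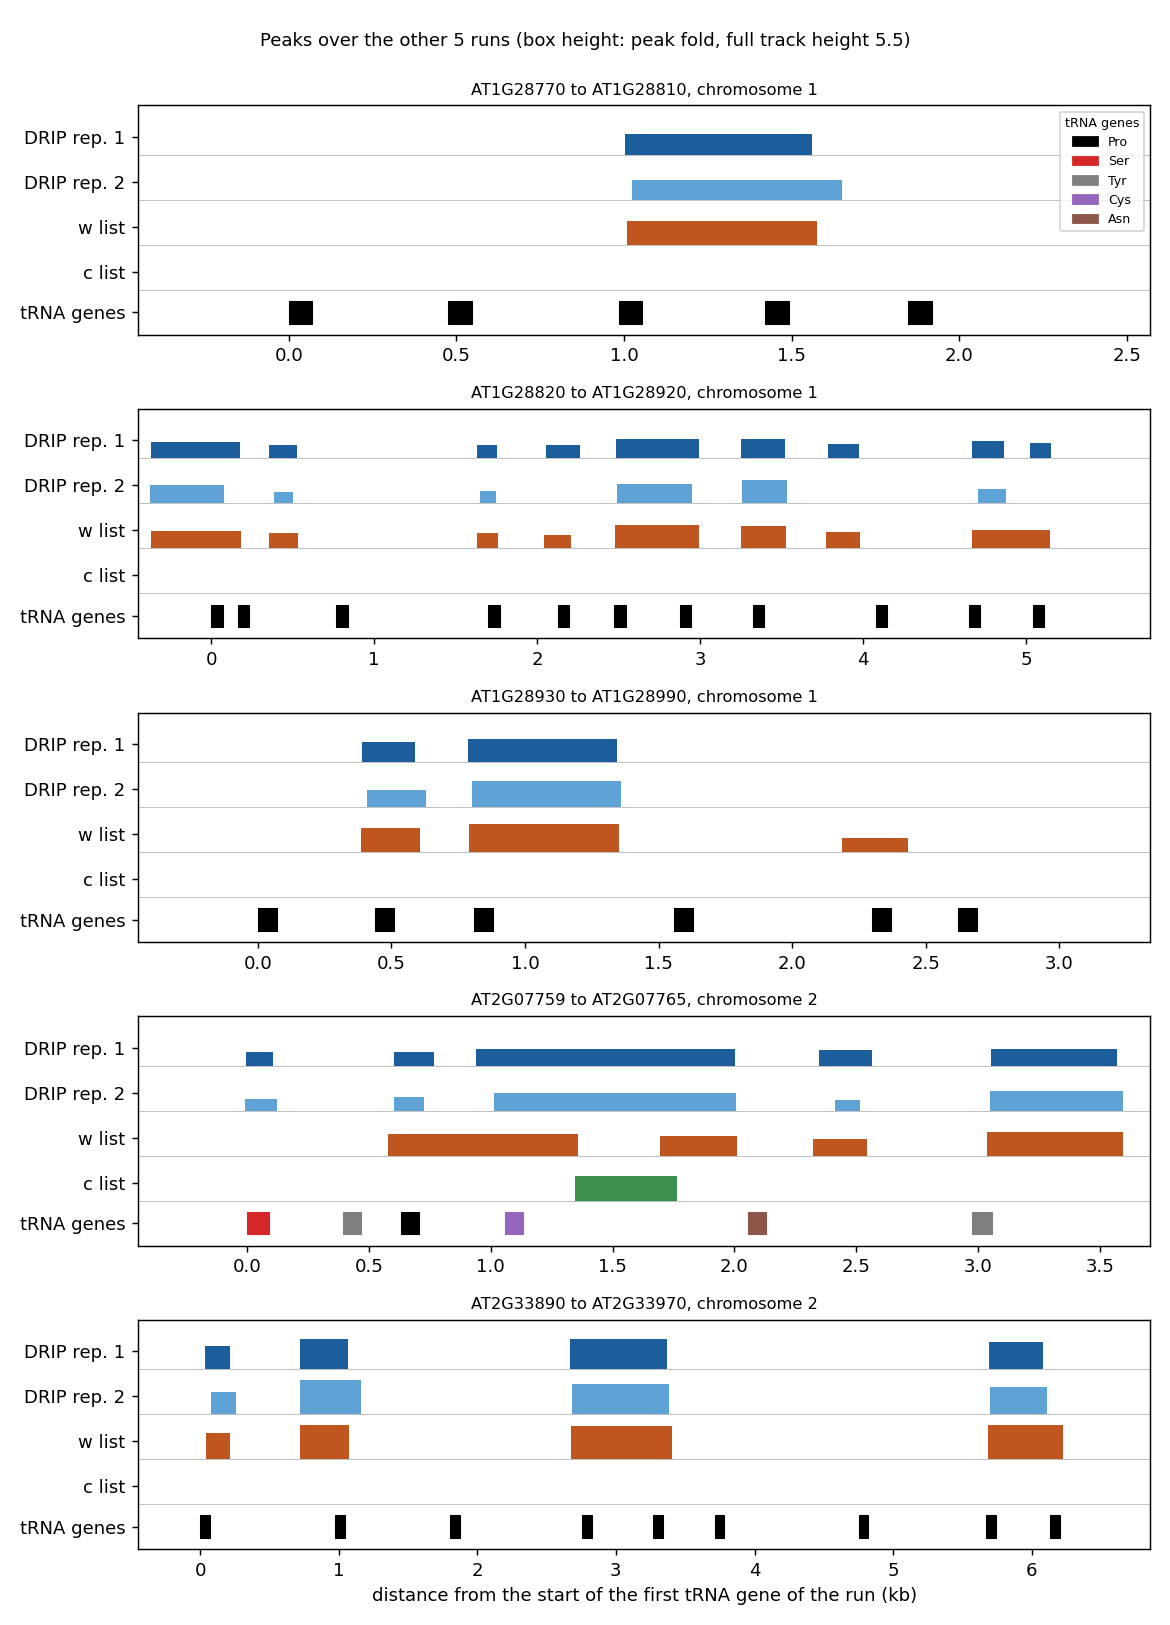
Peaks of the 4 lists along the 4 Pro runs and the mixed run AT2G07759 to AT2G07765, in kb from the start of each run's first gene; box width is peak width, box height is peak fold (full track height 5.5) and coloured blocks are tRNA genes by isotype. The c list has its 1 peak in a gap of the mixed run, and folds are highest in AT2G33890 to AT2G33970.

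Run peaks lay near the middle of the replicates' lists in fold. Their median fold was 3.0 in replicate 1 against 3.01 for the whole list, 2.82 against 2.98 in replicate 2, and 3.39 against 3.88 in the w list. In replicate 1, 18 of 38 run peaks exceeded the list's median fold, in replicate 2, 14 of 34, and in the w list 9 of 39. The highest run peak stood at percentile 91.5 of its list in replicate 1 and 96.1 in replicate 2. The median width was 240 bp in replicate 1, equal to that of the whole list, and 232.5 bp against 270 bp in replicate 2. The gene carrying the peak was seldom where the summit lay: 7 of the 38 replicate 1 summits fell inside a tRNA gene, 18 below the nearest gene and 13 above it, at a median distance of 82.5 bp. With peaks this much wider than the genes, a gene and its flanking gap were mostly covered together.

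All 34 replicate 2 run peaks overlapped a replicate 1 peak, and 34 of the 38 replicate 1 run peaks (89.5%) overlapped a replicate 2 peak, against 95.1% and 79.5% for the whole lists. The 4 replicate 1 peaks not found again had folds of 2.0 to 2.95. Of the 34 pairs 24 had the higher fold in replicate 1, but whether folds share a scale across lists is unknown. Paired summits differed by a median of 27.5 bp.

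**Figure D5:**
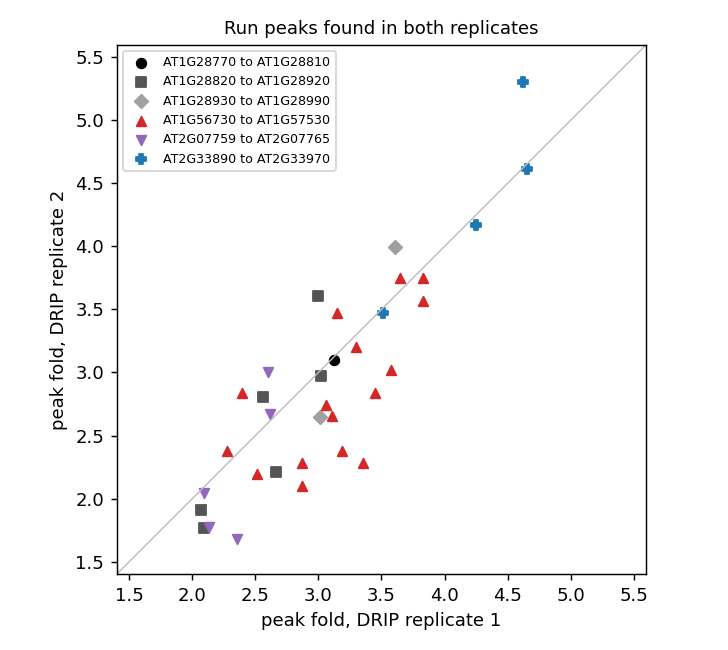
Peak fold in DRIP replicate 1 (x axis) and replicate 2 (y axis) for the 34 run peaks found in both, marked by run; the grey line marks equal folds, and whether folds share a scale across lists is unknown. The highest 3 pairs belong to AT2G33890 to AT2G33970, whose other pair (3.51 and 3.47) lies among those of other runs. The pairs of the mixed run lie between 2.09 and 2.62 in replicate 1 and between 1.68 and 3.01 in replicate 2.

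Set beside dispersed genes of the same isotype, tandem Pro genes carried DRIP peaks in both replicates in 15 of 32 cases (46.9%) and dispersed Pro genes in 14 of 34 (41.2%). For Tyr genes the counts were 14 of 56 (25.0%) and 12 of 19 (63.2%), and for Ser genes 2 of 28 (7.14%) and 13 of 36 (36.1%). No tandem gene of these isotypes carried a c peak, whereas 9 dispersed Pro, 9 dispersed Tyr and 13 dispersed Ser genes did. The fold on dispersed genes with a peak had a median of 3.56 in replicate 1 and 3.39 in replicate 2, against 3.02 and 2.98 on tandem genes with a peak. In the w list the medians were 4.92 and 3.55.

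The gene table places 9 other genes over the runs, none of them over the Ser-Tyr-Tyr run, 1 over AT1G28820 to AT1G28920, 2 over AT1G28930 to AT1G28990, 5 over the mixed run and NUDT22, a Nudix hydrolase gene, over the end of AT2G33890 to AT2G33970. All 9 had a DRIP peak in both replicates and a w peak somewhere along the gene. Of all nuclear genes 55.3% and 49.9% did. Of the 9, AT1G28715, AT2G07795, AT2G07739 and NUDT22 also had a c peak somewhere along the gene, as did 49.5% of all nuclear genes. RNA from these genes and from the tRNA genes cannot be told apart by position.

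The smallest run inside the rule, AT1G28770 to AT1G28810, had 2 of 5 genes with a DRIP peak in both replicates. Just outside it, the runs of 4 genes, AT1G28720 to AT1G28750 (Pro) and AT5G20852 to AT5G20858 (Cys), had no gene with a peak in any list. The former stands 1484 bp from the run AT1G28770 to AT1G28810, the closest gap left out. The runs of 3 genes, AT1G45242 to AT1G45246 (Pro) and AT2G07752 to AT2G07754 (Glu, Tyr and Ser), each had 1 gene with a DRIP peak in both replicates, 3 and 1 genes with a w peak, and none with a c peak.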

How the data were processed

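Nuclei of wild-type Columbia seedlings were the source of the DNA, which was cut with 6 restriction enzymes before immunoprecipitation, per the labels' protocols. Adapters were ligated to single-stranded DNA, per the labels' protocols. The submitters' processing notes name CASAVA, BWA 0.7.12, MACS2 and the build TAIR10. For the control library, the parameters, pooling and reads with several matches, the sources used here say nothing. The deposited narrowPeak files, which have no header, give per peak the authors' fold (a linear ratio), -log10 p-value, -log10 q-value, a score equal to 10 times the latter in whole numbers, and the summit.

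tRNA genes and isotypes were read from RefSeq's table for TAIR10.1, whose coordinates are not printed; 623 of 625 nuclear tRNA genes had an isotype. Runs, overlaps and coverage were computed with Python 3.11.15 and pandas 2.3.3, and the code was checked on simulated peaks and runs. Genome coverage was taken up to the last gene or peak of each chromosome. Genes named are, per run, up to 5 with the highest smaller-of-replicates fold, up to 3 without a DRIP peak and up to 3 with the highest w or c fold. The other genes with a peak in 1 replicate only, AT1G56790, the other genes over the runs with a c peak and the genes just outside the rule are named besides. Members and lists were chosen with earlier results of these data known. There are 2 DRIP samples of 1 group, and no test was made. No genome sequence was used.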

Additional observations from a re-analysis of the deposited data

How the results depend on the processing

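No tandem tRNA gene had a c peak, 0 of 118, and the 3 alternatives that could have added one also gave 0: gaps under 2 kb (128 genes), runs of 3 or more genes (132 genes) and 100 bp added on either side. The other 6 alternatives could only remove genes or overlaps and say nothing about this count. Without either DRIP replicate the count of tandem genes with a DRIP peak ranged from 32 to 39. Tandem genes with a DRIP peak in both replicates numbered 32 of 118 as reported, 13 with peaks at or above their list's median fold, 11 (of 40 genes) with gaps under 500 bp, 20 (of 92) in runs of 10 or more genes, 4 with the summit required inside the gene, and 18 (of 37) without the run that has the most genes. Genes with a w peak numbered 41 as reported and 11, 15, 27 and 5 under the first 4 of these settings. With at least 50% of the gene covered, 24 tandem genes had a DRIP peak in both replicates and 29 a w peak. With 100 bp added on either side, 38 of 118 tandem genes had a DRIP peak in both replicates and 45 a w peak. Coverage of the runs was 17.2% as reported, 9.61% with peaks at or above the median fold, 20.7% with gaps under 500 bp, 12.6% in runs of 10 or more genes and 31.9% without the largest run. For dispersed tRNA genes the share with a DRIP peak in both replicates was 33.7% as reported (95% Wilson interval 29.7 to 38.0, counting error only). It was 22.5% with peaks at or above the median fold and 6.90% with the summit inside the gene. It was 30.2% with at least 50% of the gene covered, 47.5% with 100 bp added on either side, and 38.1% to 42.6% with 1 replicate. Fewer genes or peaks enter by construction under the stricter settings. No paired analysis was possible because the RNase H samples that share replicate numbers with the DRIP samples were not analysed here. Depth is unknown, and the absence of a peak says only that no peak was called there.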
